A study of Drosophila melanogaster with 24 samples.

Results

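Old hemolymph was set against old body tissue of Drosophila melanogaster, the fruit fly, to see which microRNAs are held by the circulating fluid and which by the tissues it bathes. The comparison takes the 16 libraries labelled as 25 days old, 8 of hemolymph and 8 of body tissue, out of 24 libraries in the series. The other 8 came from flies 2 days old, 4 libraries a compartment. All flies were labelled male, and the labels name no strain, genotype or treatment. RNA was taken with a serum and plasma kit from hemolymph and with the standard miRNeasy kit from body tissue, so compartment and kit cannot be told apart. Small RNA libraries were made with TruSeq reagents and read as single 50 base reads. Old libraries 1 to 4 of each compartment carry the letter O in their description and libraries 5 to 8 the letter R. The labels do not say what the letters mean, nor how many flies a library holds or whether libraries came from separate flies, so the p-values speak of the spread among libraries, which could be technical. Of the 466 mature microRNA names in the deposited table, 303 had at least 1 count in the 16 libraries and 103 passed the filter on low counts.

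MicroRNAs are short RNAs cut from the arms of a hairpin precursor, and each guides a silencing complex to messenger RNAs that pair with its 5′ end. A hairpin can give a 5p and a 3p product, of which usually only the more stable one is abundant. Hemolymph is the open circulation of the fly: it bathes all organs and carries hemocytes, the blood cells, together with RNA that tissues release. A level here is the CPM, a count scaled to a fixed total of microRNA counts in its library. A difference is a log2 fold change of hemolymph over body, fitted on counts with the quasi-likelihood test of edgeR after TMM scaling, with its standard error (SE) and a Benjamini-Hochberg adjusted p over the 103. This SE is derived from the test statistic, so for a group with few counts it can be smaller than the counting error. Since every value is a share of a library, the total amount of microRNA in a volume of hemolymph was not measured. In bulk RNA, fewer cells of a type and less RNA per cell cannot be told apart either.

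The old body libraries held 136692 to 230282 microRNA counts (median 159236) and the old hemolymph libraries 52792 to 120876 (median 79730.5). Thinned to 52792 counts, body libraries showed 156 to 173 microRNAs and hemolymph libraries 133 to 155. Each library resembled its own compartment more than the other. The correlation of log2 CPM over the 103 microRNAs with the median of the other libraries of its group was 0.993 to 0.996 in body and 0.959 to 0.989 in hemolymph, against 0.642 to 0.737 with the median of the other compartment. Hemolymph libraries also varied more, with a larger standard deviation of log2(CPM + 10) for 90 of 103 microRNAs (median 0.459, against 0.192 in body). Hemolymph libraries 3 and 4 stood apart from the others in some microRNAs, which is described with the results it touches. A smaller set of libraries also moves the common scale: the median log2 difference of all tested microRNAs shifted by -0.25 without library 3, by -0.25 without library 4, by -0.24 without both, by -0.23 in O-coded and by -0.27 in R-coded libraries alone. Without 1 of the other hemolymph libraries the shift was -0.20 to -0.49, and without 1 body library -0.23 to 0.03. Values from fewer libraries are to be read against these shifts.

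Nearly every tested microRNA differed between the compartments. Of 103, 48 were higher in hemolymph (46.6%) and 47 lower (45.6%), so 95 passed (92.2%), and the CPM of the 2 groups did not overlap for 71 (68.9%). Groups without overlap were thus the common case, and a lack of overlap below describes a microRNA without setting it apart. The larger differences were toward body: 41 microRNAs were lower and 37 higher by at least 1 on the log2 scale, and 12 were lower and 2 higher by at least 4. Even so the abundant sets were related, with 14 of the 20 leading microRNAs shared. Across the 103 microRNAs the mean levels had r = 0.68 and rho = 0.71, as a description. The scaling matters for small differences. RLE scaling moved the median of the 103 from 0.01 to -0.50, a shift of -0.51, upper-quartile factors moved it by -0.20 and library size alone by -0.35. All 47 lower calls and 40 of the 48 higher calls passed under each of these 3 scalings, and the 8 that did not were all under 0.80 on the log2 scale.

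**Figure D1:**
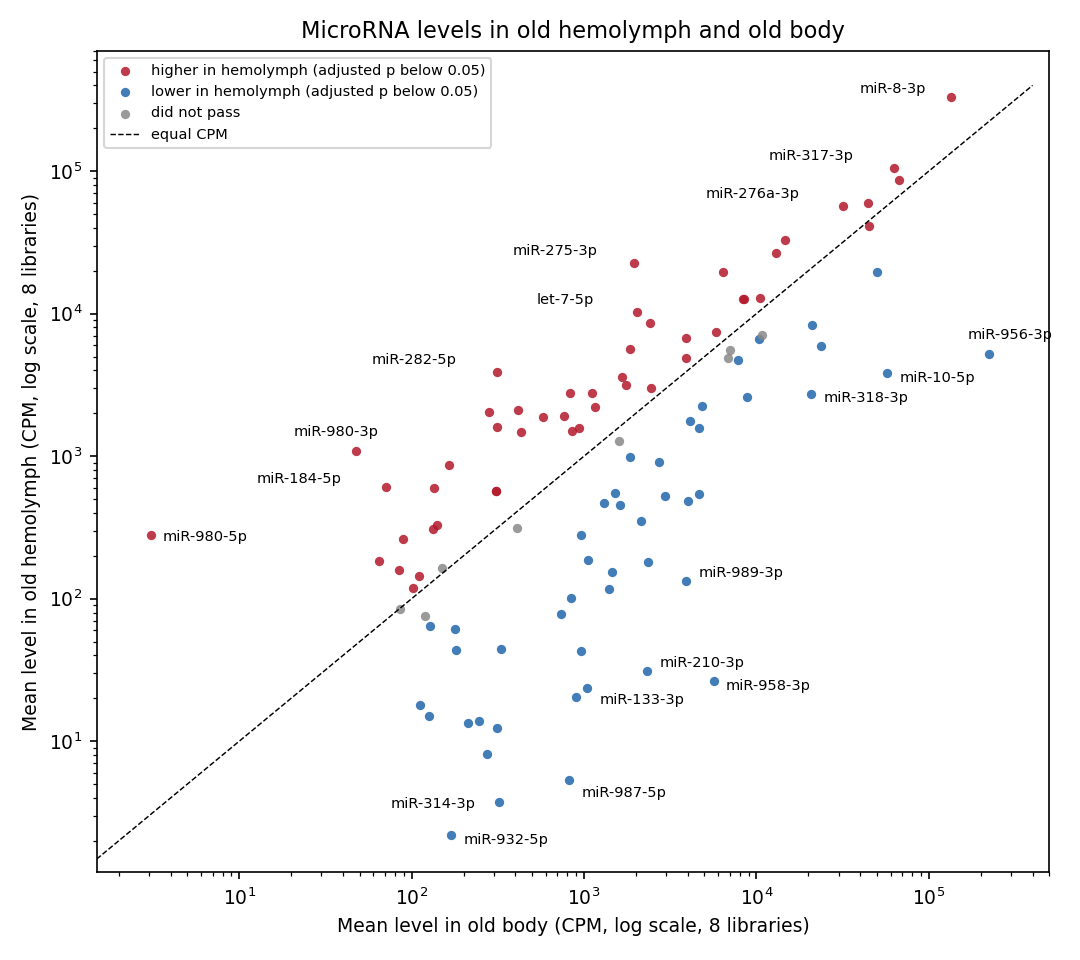
Mean level of 103 microRNAs in old body (x axis) and old hemolymph (y axis), both in CPM on log scales over 8 libraries each, coloured by the test after TMM scaling. Points reach further below the line of equal CPM, as for miR-958-3p (log2 fold change -7.43), than above it, and 14 of the 20 most abundant microRNAs are shared.

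The most abundant microRNA of hemolymph was miR-8-3p, which acts in the fat body on insulin signalling and body growth. It lay at 254193, 315731 and 400818 CPM (lowest, median and highest) in hemolymph and at 127833, 135509 and 140063 CPM in body. The groups did not overlap, and the difference was 1.67 ± 0.13 (SE, adjusted p = 3.72e-10). The leading microRNA of body, miR-956-3p, whose hairpin lies on chromosome 3L (11773731 to 11773878, minus strand, no annotated host on that strand), was lower in hemolymph. It lay at 199610 to 245247 CPM in body (median 223789) and at 2751 to 9053 CPM in hemolymph (median 4992). The groups lay far apart, and the difference was -5.09 ± 0.21 (adjusted p = 5.77e-14). The ratio of miR-8-3p to miR-956-3p within a library, which needs no scaling, was 28.1 to 138 in hemolymph and 0.541 to 0.690 in body.

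Other abundant microRNAs were higher in hemolymph by smaller steps. miR-317-3p, which lies in a cluster with miR-277 and miR-34 on 3R, ranged from 96965 to 117218 CPM in hemolymph and from 56302 to 67403 CPM in body (1.12 ± 0.09, adjusted p = 2.76e-10). miR-33-5p, from an intron of SREBP, the regulator of lipid synthesis (3L, 19797961 to 19798059, plus strand), ranged from 28116 to 43110 CPM against 13237 to 16386 CPM (1.54 ± 0.12, adjusted p = 5.53e-10). miR-11-3p, which lies in an intron of E2f1 and represses cell death genes, ranged from 21799 to 30692 CPM against 11929 to 14375 CPM (1.40 ± 0.08, adjusted p = 3.42e-12). For these 3 all hemolymph libraries were above all body libraries. The groups overlapped for miR-184-3p (0.73 ± 0.11, adjusted p = 2.76e-06), known from female germline development, and for miR-14-3p (0.80 ± 0.13, adjusted p = 1.08e-05), known from fat metabolism. With RLE scaling miR-14-3p stood at 0.28 and did not pass (adjusted p = 0.0711), and in the R-coded libraries alone miR-184-3p stood at 0.14 and did not pass (adjusted p = 0.303). In the fit of all 24 libraries neither passed (miR-184-3p 0.26, adjusted p = 0.263, miR-14-3p 0.33, adjusted p = 0.105). Without a low-count filter neither passed (miR-184-3p 0.15, adjusted p = 0.255, miR-14-3p 0.24, adjusted p = 0.134). The difference of miR-184-3p between the codes did not pass either (interaction 0.48 ± 0.18, adjusted p = 0.187). The growth microRNA bantam-3p was the least stable of the abundant ones: its CPM was 38171 to 45274 in hemolymph and 39656 to 48266 in body, its log2 difference 0.22 with TMM scaling (adjusted p = 0.0121) and -0.28 with RLE scaling (adjusted p = 0.000912). No direction can be given for it.

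The 10 most abundant microRNAs of a library took 72.4% to 82.4% of its counts in hemolymph (mean 78.7% ± 3.22, SD, n = 8) and 73.0% to 75.9% in body (mean 74.1% ± 0.985, n = 8). Hemolymph was thus the more concentrated set on average, by 4.59 percentage points (two-sided exact permutation test, p = 0.00249), though the ranges overlapped. In the O-coded libraries alone the difference was 3.19 points and did not pass (exact permutation p = 0.143, 4 against 4).

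The largest differences toward hemolymph were those of miR-980-5p and miR-980-3p, cut from 1 hairpin on X (280172 to 280269, minus strand) and known as suppressors of memory in the fly brain. miR-980-5p lay at 192, 274 and 379 CPM in hemolymph and at 0 to 7.04 CPM in body, where 4 of 8 libraries had no count and the group held 4 counts in all (6.45 ± 0.33, adjusted p = 1.45e-12). With 4 counts in body, the size of this difference is less certain than its SE shows. miR-980-3p lay at 738 to 1572 CPM in hemolymph and 27.3 to 87.8 CPM in body (4.88 ± 0.21, adjusted p = 8.93e-14). Neither arm overlapped between the groups. Next came miR-282-5p, from an exon of a noncoding RNA on 3L (3251022 to 3251118, plus strand), at 2676 to 6838 CPM in hemolymph and 245 to 358 CPM in body (4.0 ± 0.21, adjusted p = 2.25e-12). Its highest value was in hemolymph library 3, and without that library the difference was 3.62. miR-284-3p, from an exon of the octopamine receptor gene Octbeta2R and known from glutamate receptors at the neuromuscular junction, lay at 1118, 2087 and 2714 CPM in hemolymph and at 219.7, 274 and 352 CPM in body (3.25 ± 0.19).

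Minor products of abundant hairpins were also among the 10 largest differences toward hemolymph. miR-184-5p lay at 361 to 809 CPM in hemolymph and 21.9 to 118 CPM in body (3.44 ± 0.25, adjusted p = 1.56e-10), where its partner miR-184-3p differed by 0.73. miR-14-5p lay at 1155 to 1928 CPM against 219 to 387 CPM (2.74 ± 0.16), and miR-275-5p at 637 to 1348 CPM against 129 to 211 CPM (2.77 ± 0.18). None of the 3 overlapped, where 68.9% of all tested microRNAs did not. For mir-275 the major arm miR-275-3p differed more (3.90). Its 5p arm took 3.65% of the hairpin's counts in hemolymph and 7.79% in body, so its share was smaller in hemolymph.

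miR-275-3p ranked 9th by level in hemolymph and 43rd in body. Background knowledge of miR-275 comes from mosquitoes, where it is needed for blood digestion. It lay at 19007, 22763 and 24659 CPM in hemolymph and at 1522, 1941 and 2630 CPM in body. The hemolymph libraries were closely grouped and far above all body libraries, a difference of 3.90 ± 0.11 (adjusted p = 2.59e-16). Its hairpin lies in an exon of a noncoding RNA on 2L and next to mir-305, which has no annotated host on that strand (7425795 to 7426044 for the pair, plus strand). miR-305-3p differed by 0.64 ± 0.07. The ratio of miR-275-3p to miR-305-3p was 1.58 to 1.99 in hemolymph and 0.139 to 0.255 in body, so the order of these neighbours was opposite in the compartments. With RLE scaling miR-305-3p stood at 0.13 and did not pass (adjusted p = 0.122).

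The let-7 complex on 2L (18471434 to 18472424, plus strand) is a single transcript that carries miR-100, let-7 and miR-125 and times development and adult remodelling. All 3 were higher in hemolymph, where 46.6% of all tested microRNAs were, and none overlapped, where 68.9% did not. let-7-5p lay at 6868, 10355 and 14480 CPM in hemolymph and 1722, 1998 and 2387 CPM in body (2.69 ± 0.10, adjusted p = 1.00e-14). miR-100-5p lay at 1419 to 2728 CPM against 308 to 564 CPM (2.72 ± 0.15), and miR-125-5p at 2122 to 3973 CPM against 602 to 1148 CPM (2.11 ± 0.15). The 3 differences stayed within 0.61 of each other, and together the complex took 1.06% to 1.96% of hemolymph and 0.263% to 0.396% of body counts. The aging and lifespan list adds miR-34-5p, known for protecting the aging brain, miR-277-3p, a regulator of amino acid breakdown, and miR-14-3p. All 6 of its members passed as higher, where 46.6% of all tested microRNAs did, and 3 of the 6 are the let-7 transcript already described. The median was 1.53, against 0.01 for all 103. Under RLE scaling 5 of 6 passed as higher, where 40 of all 103 did. In the fit of all 24 libraries 4 did, where 38 of these 103 did. miR-34-5p lay at 9820.0 to 18810 CPM in hemolymph and 7740.0 to 9384 CPM in body (0.95 ± 0.11) without overlap. miR-277-3p lay at 7873 to 26841 CPM and 7199 to 9637 CPM (0.96 ± 0.18) with overlap. Its top value was hemolymph library 3, without which the difference was 0.50 ± 0.12 (adjusted p = 0.00113), and in the R-coded libraries alone it was 0.38 and did not pass (adjusted p = 0.0809), nor did its interaction with the code (adjusted p = 0.491).

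**Figure D2:**
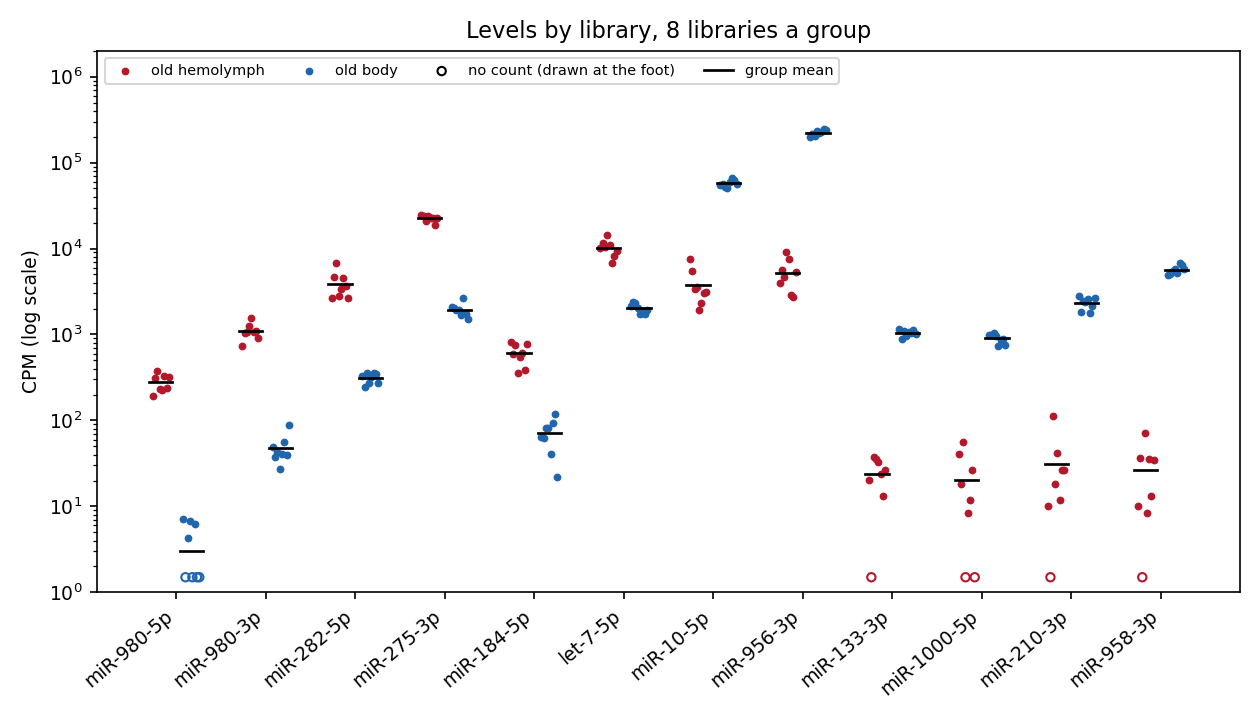
Level of 12 microRNAs in each of the 8 old hemolymph (red) and 8 old body libraries (blue), in CPM on a log scale, with the group mean as a black line. The groups do not overlap for any of the 12, from miR-980-5p, with no count in 4 body libraries, to miR-958-3p, at 0 to 72.1 CPM in hemolymph and 4917 to 6705 CPM in body. Over all 103 tested microRNAs 68.9% did not overlap.

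Of the 14 microRNAs on the head and nervous system list 12 were tested, and 9 of the 12 were lower and 3 higher in hemolymph, where 45.6% of all tested microRNAs were lower. Their median was -3.79, against 0.01 for all 103. Among the lower ones, miR-210-3p, a microRNA of the visual system (X, 18128219 to 18128318, plus strand), lay at 1758 to 2832 CPM in body and 0 to 114 CPM in hemolymph (-5.92 ± 0.30, adjusted p = 8.68e-13). Hemolymph library 3 held the highest of these values and library 2 no count. miR-1000-5p, which restrains glutamate release from neurons, lay at 742 to 1042 CPM in body and 0 to 56.8 CPM in hemolymph (-5.17 ± 0.28). miR-315-5p, known from Wingless signalling, lay at 203 to 317 CPM in body and at 0 to 37.9 CPM in hemolymph, with a median of 0 (-4.93 ± 0.39). The hemolymph group held 4 counts of miR-315-5p, 12 of miR-1000-5p and 19 of miR-210-3p in all. The sizes of these differences are thus less certain than their SE shows. For miR-957-3p both compartments were well covered, with 2392 to 3447 CPM in body and 245 to 960.5 CPM in hemolymph (-2.11 ± 0.24). None of these 4 overlapped, where 68.9% of all tested microRNAs did not.

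Some nervous system microRNAs were close to absent from hemolymph. miR-987-5p had 3 counts over the 8 hemolymph libraries and 1092 over the 8 body libraries, a ratio of 181 per count sequenced (95% interval 61.7 to 878, exact, counting error only). miR-932-5p had 2 counts against 221, a ratio of 54.9 (15 to 456), and the neuronal miR-124-3p had 1 against 154, a ratio of 76.5 (13.5 to 3041). Their fitted log2 values (-6.88 for miR-987-5p and -5.09 for miR-932-5p) rest on those few counts, and miR-124-3p was not tested. The same holds outside the list for miR-314-3p, with 2 counts against 420, a ratio of 104 (28.7 to 864).

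The nervous system list also held 3 microRNAs that were higher in hemolymph. miR-276a-3p, known from olfactory memory, lay at 46446 to 75058 CPM in hemolymph and 29051 to 35934 CPM in body (1.2 ± 0.10, adjusted p = 1.37e-09). miR-190-5p, from an intron of rhea, lay at 1615 to 2344 CPM against 506 to 644 CPM (2.05 ± 0.11), and miR-929-5p, from an intron of the synaptic gene cpx, at 313 to 836 CPM against 80.5 to 170 CPM (2.52 ± 0.20). None of the 3 overlapped, where 68.9% of all tested microRNAs did not. Because miR-276a-3p is so abundant, the list as a whole took more of the hemolymph counts (4.95% to 7.87%) than of the body counts (3.93% to 4.90%), although 9 of its 12 tested members were lower. Its near copy miR-276b-3p went the other way, at 94.7 to 245 CPM in hemolymph and 2078 to 2670 CPM in body (-3.34 ± 0.14, adjusted p = 8.93e-14). The ratio of miR-276a-3p to miR-276b-3p was 221 to 490 in hemolymph and 11.1 to 15.5 in body. Reads of so similar sequences may be assigned to either name, and the 5p products of both hairpins had identical counts in every library.

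Both muscle microRNAs were lower in hemolymph, where 45.6% of all tested microRNAs were. miR-133-3p (2L, 20616617 to 20616714, plus strand) lay at 879.5 to 1169 CPM in body and at 0 to 37.9 CPM in hemolymph (-5.01 ± 0.20, adjusted p = 3.95e-14). miR-1-3p, which shapes muscle growth, lay at 574 to 889 CPM in body and at 13.4 to 145 CPM in hemolymph (-2.91 ± 0.26, adjusted p = 3.48e-09). Neither overlapped, where 68.9% of all tested microRNAs did not. The pair together took 0.153% to 0.202% of body and 0.00267% to 0.0170% of hemolymph counts. Within a library the ratio of miR-1-3p to miR-133-3p was 0.506 to 0.832 in body and 1.0 to 4.5 in the 7 hemolymph libraries that counted miR-133-3p. The hemolymph values rest on few counts, 50 of miR-1-3p and 16 of miR-133-3p over all 8 libraries. The ratios by library and the size for miR-133-3p are thus uncertain.

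Further large differences toward body were spread over several functions. miR-958-3p (3L, 22669289 to 22669380, minus strand), a repressor of Toll immune signalling, differed most. It lay at 4917, 5599 and 6705 CPM in body and at 0, 24.2 and 72.1 CPM in hemolymph, a difference of -7.43 ± 0.26 (adjusted p = 8.83e-15). The hemolymph group held 16 counts of miR-958-3p in all, so its size is less certain than its SE shows. miR-10-5p, from the Antennapedia complex of homeotic genes (3R, 6809506 to 6809582, minus strand), ranked 5th in body at 50839 to 65520 CPM and 30th in hemolymph at 1911 to 7593 CPM (-3.57 ± 0.23, adjusted p = 2.03e-11). miR-993-3p, from a noncoding RNA on the same arm (3R, 6776333 to 6776451, plus strand), lay at 260 to 380 CPM in body and 0 to 18.9 CPM in hemolymph (-4.39 ± 0.24). For all 3 every body library was above every hemolymph library.

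The gut, fat body and metabolism list was divided. Of its 11 members, all tested, 7 were higher and 4 lower (median 0.80), and under RLE scaling 5 and 4. Among all tested microRNAs 46.6% were higher and 45.6% lower, and under RLE scaling 40 and 54 of the 103. Beside miR-8-3p, miR-14-3p, miR-33-5p, miR-275-3p and miR-277-3p the higher ones were miR-278-3p (1.5 ± 0.12), known from insulin sensitivity, and miR-305-5p (0.73 ± 0.10), which acts in gut stem cells and overlapped between the groups. The lower ones were the 3 products of the mir-281 hairpins and miR-263a-5p. miR-281-2-5p lay at 20583 to 28490 CPM in body and 3263 to 8061 CPM in hemolymph (-1.66 ± 0.12). miR-263a-5p, which protects sensory bristle cells, lay at 45889 to 59242 CPM in body and 13997 to 27374 CPM in hemolymph (-1.03 ± 0.10, adjusted p = 7.58e-09). Neither overlapped, where 68.9% of all tested microRNAs did not. The whole list took 42.5% to 54.8% of hemolymph and 28.0% to 30.6% of body counts, with miR-8-3p alone at 33.0% and 13.5%.

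Of the immune and hemocyte list 10 of 13 members were tested, and 5 were higher and 5 lower (median -0.42, and 4 and 6 under RLE scaling). The TMM division is close to that of all tested microRNAs, 46.6% higher and 45.6% lower. Under RLE scaling all 103 split into 40 higher and 54 lower. The higher were miR-8-3p, miR-317-3p, let-7-5p, miR-34-5p and bantam-3p, of which bantam-3p changed sign with RLE scaling. The lower were miR-958-3p and the 4 microRNAs of the mir-310 cluster. The list holds no microRNA that marks hemocytes alone, so the hemolymph label was not tested by markers.

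The families with shared seeds were mixed or lower. The shares over all tested microRNAs were 46.6% higher and 45.6% lower. In the miR-2 and K box family, which represses pro-apoptotic genes, 6 of 8 were tested. miR-11-3p was higher, and miR-2a-3p (-1.23 ± 0.12), miR-13b-3p (-0.87 ± 0.13) and miR-2c-3p (-0.66 ± 0.23) were lower. miR-2b-3p, the second most abundant of them, stood at -0.12 ± 0.09 (adjusted p = 0.204) and at -0.63 with RLE scaling (adjusted p = 3.57e-06). It also passed as lower with upper-quartile factors (-0.32, adjusted p = 0.0131), by library size alone (-0.48, adjusted p = 0.000165) and by DESeq2 (-0.63). The same held whichever single hemolymph library was left out. In each of these settings the median of all tested microRNAs also moved lower. In the miR-9 family miR-9a-5p, which refines sense organ precursors, was higher (0.68 ± 0.12), and miR-9b-5p (-0.58 ± 0.15) and miR-9c-5p (-0.40 ± 0.17) were lower, all with overlapping groups. miR-9c-5p did not pass without body library 4 (-0.36, adjusted p = 0.06) or 5 (-0.38, adjusted p = 0.0525). With RLE scaling miR-9a-5p stood at 0.16 and did not pass (adjusted p = 0.257). The miR-310 and miR-92 family had 5 of 6 lower (median -1.33), from miR-310-3p at -2.93 ± 0.28 to miR-312-3p at -1.06 ± 0.31 and with miR-92a-3p at -1.18 ± 0.26, while miR-92b-3p stood at -0.32 ± 0.26 (adjusted p = 0.248). miR-92b-3p passed as lower with RLE scaling (-0.84, adjusted p = 0.00536), upper-quartile factors (-0.60, adjusted p = 0.014) and by DESeq2 (-0.84, adjusted p = 0.00143), which makes 6 of 6 lower, and in the R-coded libraries alone (-1.05, adjusted p = 0.00646). RLE scaling, upper-quartile factors and DESeq2 called 54, 49 and 54 of all 103 lower.

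**Figure D3:**
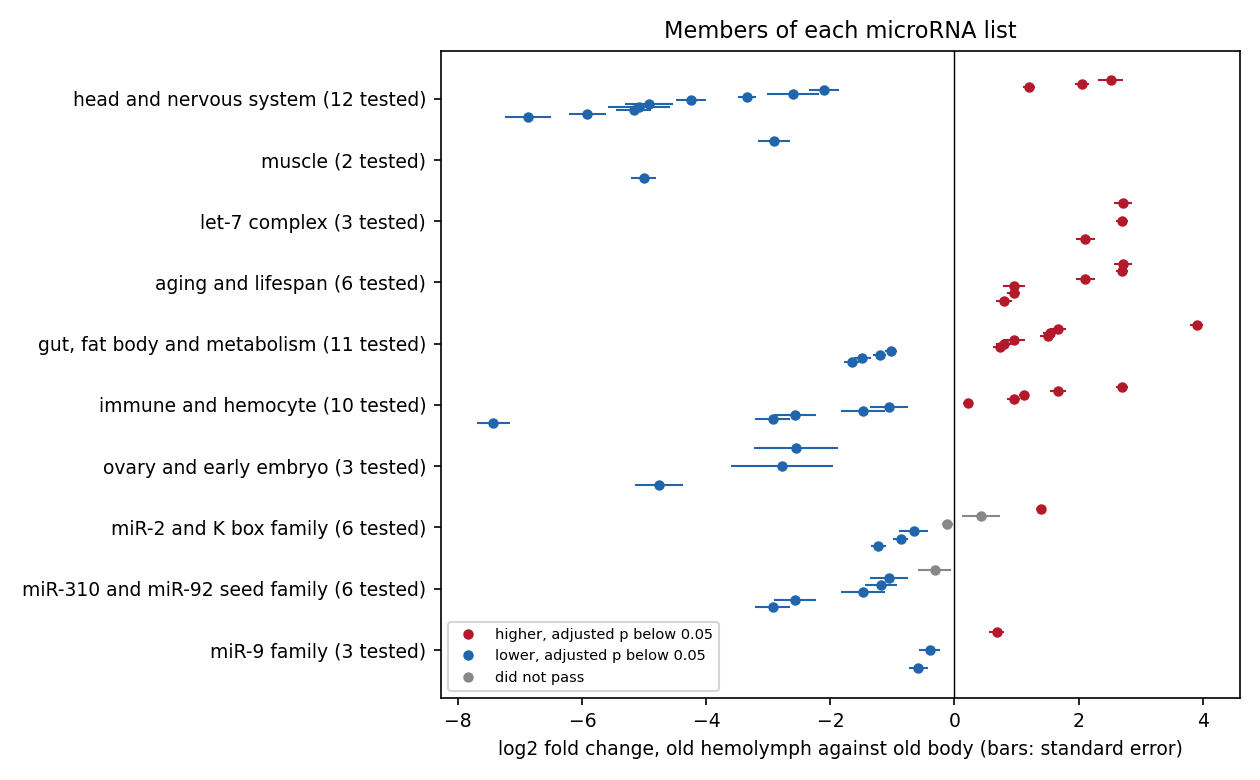
Log2 fold change of old hemolymph against old body, with its standard error, for each tested microRNA of 10 lists. The let-7 complex and the aging list lie to the right of 0 throughout, the muscle and ovary lists to the left, and the nervous system list has 9 members on the left and 3 on the right.

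Ovary microRNAs were abundant in the old body libraries, which are labelled male. Whether the sex label or the tissue given for these microRNAs holds in these flies was not tested. miR-318-3p, from the follicle cells of the ovary (3R, 10408302 to 10408369, plus strand), lay at 14315 to 27895 CPM in old body, and miR-989-3p, which acts in border cells, at 2921 to 5018 CPM. Of the 8 ovary and early embryo microRNAs 3 were tested, and all were lower in hemolymph, where 45.6% of all tested microRNAs were. In the O-coded libraries alone only miR-989-3p of the 3 passed (-3.97), and miR-994-5p stood at -1.50 (adjusted p = 0.114). Of the 14 testis cluster microRNAs none was tested, and together they took 0.0123% to 0.0198% of body counts where the ovary list took 1.98% to 3.59%. In hemolymph the ovary list ran from 0.0256% to 2.02%, and its top was library 4. There miR-318-3p was at 17907 CPM, within the range of body, whereas the other 7 hemolymph libraries lay at 147 to 2178 CPM. Without library 4 the difference of miR-318-3p went from -2.78 ± 0.82 to -5.12 ± 0.44, and that of its neighbour miR-994-5p from -2.55 ± 0.68 to -4.67 ± 0.40. miR-989-3p did not follow: library 4 held 108 CPM of it, and its difference was -4.76 ± 0.39 with and -4.97 ± 0.37 without that library.

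The same library was high in the miR-310 and miR-92 family. miR-312-3p was at 22812 CPM in library 4 and at 2234 to 11227 CPM in the other hemolymph libraries, and miR-311-3p at 7700.1 CPM against 827 to 4083 CPM. Without library 4 the differences were -1.59 for miR-312-3p, -2.06 for miR-311-3p and -0.81 for miR-92b-3p, which then passed (adjusted p = 0.00092). For miR-92b-3p leaving out library 3 instead gave -0.61 (adjusted p = 0.0402), a move close to the common shift of -0.25. Hemolymph library 3 was high in miR-277-3p, miR-34-5p, miR-282-5p and miR-13b-3p. Without libraries 3 and 4, a choice made after their values were seen, 47 microRNAs were higher and 52 lower of 107 tested, and 93 of the 95 calls were among them with their direction.

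**Figure D4:**
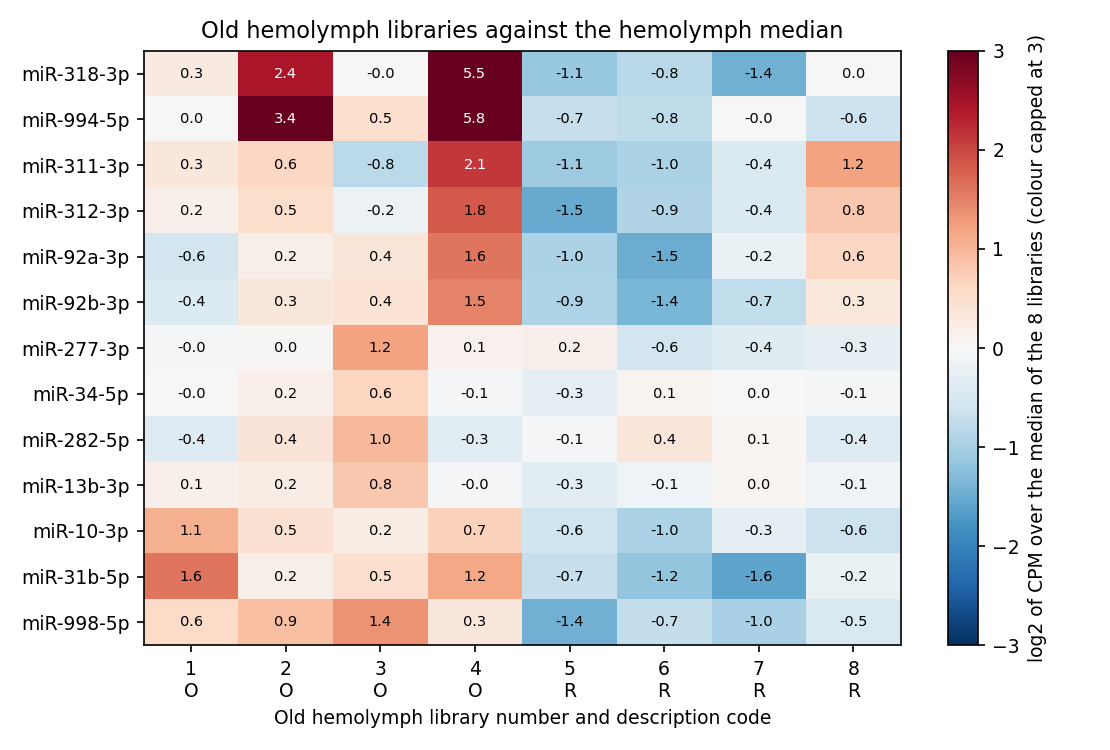
Level of 13 microRNAs in each old hemolymph library as the log2 ratio to the median of the 8 libraries, with library number and description code. Library 4 holds the highest values of miR-318-3p (17907 CPM), miR-994-5p and the miR-310 and miR-92 family, library 3 that of miR-277-3p (26841 CPM), and O-coded libraries are above R-coded ones in the last 3 rows.

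In several genomic clusters all tested products differed in 1 direction. This stands beside 92.2% of all tested microRNAs that passed, 46.6% as higher and 45.6% as lower. All 4 products of the mir-317, mir-277 and mir-34 cluster were higher in hemolymph, as were all 3 of mir-279 and mir-996. Of these miR-277-3p did not pass without a low-count filter (0.39, adjusted p = 0.0546). All 3 of the mir-281 hairpins and all 4 of the mir-310 cluster were lower. Other clusters held calls in both directions. Of the mir-9c, mir-306 and mir-9b cluster 1 product was higher and 3 were lower (-1.14 to 1.95). Of the mir-2a-2 and mir-2b-2 cluster 2 were higher and 1 was lower (-1.23 to 1.54). In the mir-283, mir-304 and mir-12 cluster in an intron of Gmap (X, 15507956 to 15509546), miR-12-5p was lower by 2.77 on the log2 scale and miR-283-5p stood at 0.01. The ratio of miR-12-5p to miR-283-5p was 0.352 to 0.598 in hemolymph and 2.58 to 3.37 in body, without overlap, a comparison inside each library that no scaling moves.

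The balance of the 2 arms of a hairpin also differed between the compartments. It was compared for the 20 hairpins with both arms tested, as the mean log2 ratio of 5p to 3p counts (offset 0.5), with a two-sided exact permutation test of 8 against 8 libraries adjusted over the 20, whose smallest p is 0.000155. The ratio differed for 16 hairpins (80.0%). In 12 of the 16 the arm that is the minor one in body took a larger share in hemolymph, and in 4 the major one did. For mir-184 the 5p arm took 0.736% of the hairpin's counts in hemolymph (0.347% to 0.930% by library) and 0.108% in body (0.0286% to 0.169%). The 5p arm of bantam took 3.55% in hemolymph (2.46% to 4.27%) and 0.952% in body (0.784% to 1.06%). In both the minor arm was larger in every hemolymph library than in any body library (differences of 2.77 and 1.90 in the log2 ratio, exact permutation, adjusted p = 0.000345 for each).

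The balance also differed where neither arm is rare. The 3p arm of mir-34 took 40.7% in hemolymph (32.4% to 45.5%) and 22.1% in body (17.8% to 24.8%), and that of mir-284 27.2% (18.6% to 31.0%) and 13.3% (9.59% to 15.6%). Neither overlapped. mir-9a and mir-9b, members of 1 family, moved in opposite directions: the 5p arm of mir-9a went from 80.4% in body to 94.8% in hemolymph, that of mir-9b from 95.6% to 77.2% (differences of 2.16 and -2.41, exact permutation, adjusted p = 0.000345 and 0.0013). mir-998 was the only one of the 20 hairpins whose major arm changed, with the 5p arm at 35.8% in body and 68.2% in hemolymph (adjusted p = 0.000848, exact permutation), but with overlap and on 154 counts in hemolymph. Mean hemolymph levels of miR-998-5p were 280 CPM in O-coded and 86.6 CPM in R-coded libraries. Those of miR-998-3p were 78.5 and 72.0 CPM, so the arms were closer in R-coded libraries. The largest ratio change, 3.72 for mir-958, rests on 8 and 16 counts of its arms in hemolymph. The 3p products of mir-2a-2 and mir-281-1 are shared with a second hairpin, so their ratios do not belong to 1 hairpin. All 16 kept their sign in O-coded and in R-coded libraries alone, where an exact permutation test of 4 against 4 libraries cannot give less than p = 0.0286 and none passed after adjustment.

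**Figure D5:**
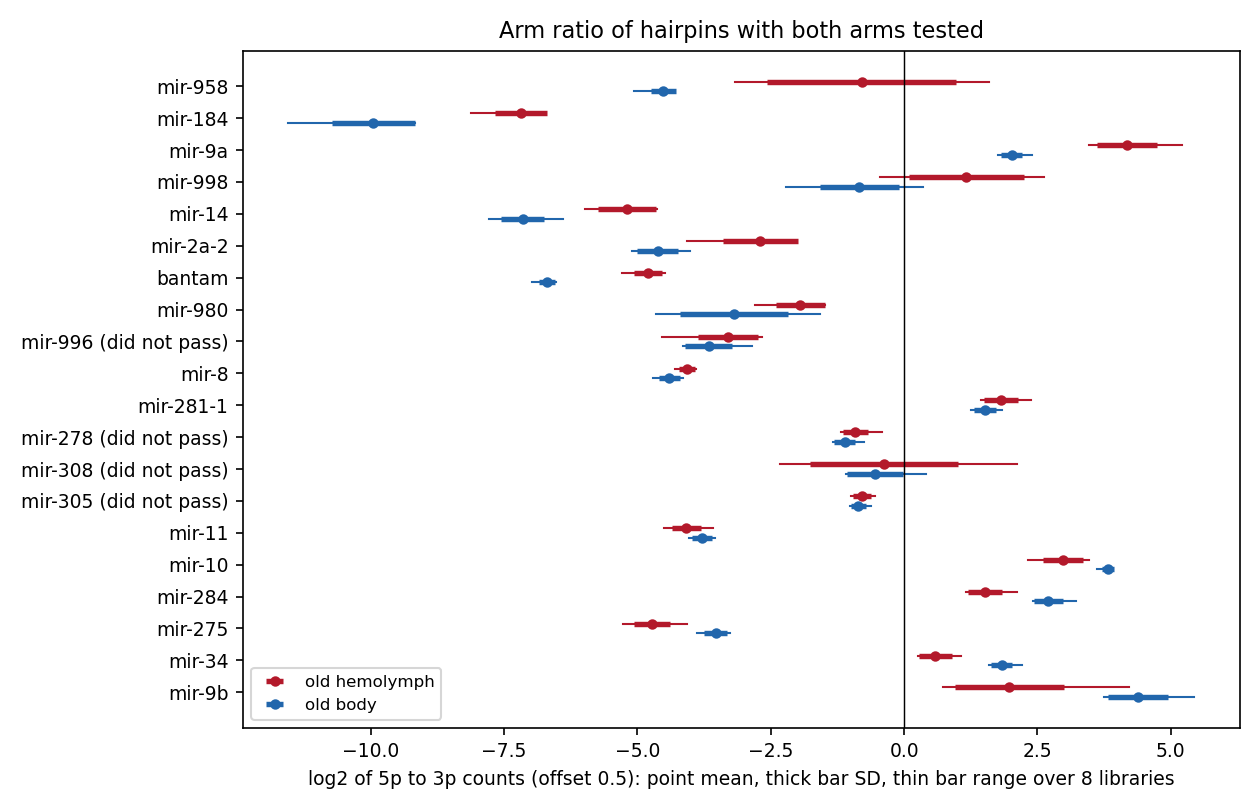
Log2 ratio of 5p to 3p counts (x axis) for 20 hairpins in old hemolymph (red) and old body (blue), with mean, SD and range over 8 libraries each. The groups stand apart for mir-184, bantam, mir-34 and mir-284, and 4 hairpins did not pass.

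MicroRNAs counted in 1 compartment alone had low counts. Of the 303 with a count, 97 were counted in all 16 libraries, 63 in body only and 30 in hemolymph only, and 7 of the body-only ones were in all 8 body libraries, while none of the hemolymph-only ones was in all 8 hemolymph libraries. The most abundant without a hemolymph count were miR-990-5p (52.1 to 84.5 CPM in body) and miR-193-5p (22.5 to 63.4 CPM in body). Against a floor of 3 counts over the hemolymph group they were at least 13.9-fold and 9.77-fold lower. miR-193-3p and miR-285-3p followed, at least 6.13-fold and 5.96-fold lower. The most abundant without a body count, miR-4914-5p, had 7 counts in 5 hemolymph libraries, which is at least 4.70-fold above the floor of 3 counts over the body group.

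The letters O and R in the descriptions went with differences in hemolymph. In hemolymph 15 of 103 microRNAs differed between O-coded and R-coded libraries (14.6%), and this count was 6 without hemolymph library 6, 27 without hemolymph library 8 and 9 without libraries 3 and 4. In body none differed (0.0%; 8 had an unadjusted p under 0.05, and DESeq2 called 3 and limma voom 9). The difference between hemolymph and body itself depended on the code for 8 microRNAs (7.77%). That count was 5 without body library 4 or 5 and 1 in a fit with the replicate number as a block, though the numbers were not found to pair the libraries. miR-10-3p lay at 511 to 910 CPM in the 4 O-coded and at 225 to 361 CPM in the 4 R-coded hemolymph libraries, so that its difference was -2.12 in O-coded and -3.51 in R-coded libraries (interaction 1.39 ± 0.24, adjusted p = 0.00288). miR-10-5p, from the other arm, had -3.06 and -4.16 (1.10 ± 0.31, adjusted p = 0.0338). miR-998-5p was higher by 2.52 in O-coded libraries and stood at 0.62 in R-coded ones (1.90 ± 0.50, adjusted p = 0.0205). The ovary microRNAs miR-318-3p (4.61 ± 1.14), miR-994-5p (4.69 ± 1.18) and miR-989-3p (2.52 ± 0.61) were also among the 8, with the smaller difference in O-coded libraries, as were miR-31b-5p (1.75 ± 0.40) and, in the other direction, miR-986-5p (-0.68 ± 0.17). Library 4, high in the first pair, is O-coded, and without libraries 3 and 4 there were 7 calls, all among the 8. Within the O-coded libraries alone miR-318-3p stood at -1.77 and did not pass (adjusted p = 0.116), and within the R-coded ones it was at -6.50. Despite these, 83 of the 95 calls passed with the same direction in the O-coded and in the R-coded libraries alone.

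The contrast of the 2-day-old flies, 4 libraries of each compartment, differed from the old contrast for 18 of 124 microRNAs (14.5%), by an interaction in 1 fit of all 24 libraries. That fit put the median old difference of its tested microRNAs at -0.45, a shift of -0.46 from the main fit. Its old values are to be read against that shift. In that fit miR-275-3p was higher in hemolymph by 3.44 in old and stood at 0.33 in young flies (interaction 3.10 ± 0.34, adjusted p = 2.90e-07). miR-957-3p (-2.58 in old, -5.45 in young) and miR-989-3p (-5.15 and -8.90) were closer to body level in old than in young hemolymph. miR-317-3p stood at 0.65 in old and at -0.94 in young flies, an interaction of 1.59 ± 0.46 (adjusted p = 0.0209), where the main fit of old libraries gave 1.12. The number of calls ran from 9 with no low-count filter to 32 by DESeq2, and without hemolymph libraries 3 and 4 it was 17, of which 11 were among the 18. Of the 18 calls 8 were more positive and 10 more negative in old flies. Of the 17 calls 14 were more positive and 3 more negative, so this balance depended on the libraries used.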

How the data were processed

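Small RNA sequencing gave 1 deposited table with a count column and an RPM column for each of 24 libraries. Per the submitters' processing notes Bowtie 1.0, edgeR and the dm6 build were used. Roles of these, trimming, counter, microRNA release and multi-mapping rules: not given in the sources used here. Whole, unnormalized values fill the deposited count columns. The deposited counts alone were tested, and the deposited RPM values equal them scaled to the column total (within 0.005). A name listed for several hairpins was represented by its largest row (10 of 476 rows left out). Hairpin positions and hosts are those of Ensembl release 115 on the dm6 assembly.

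Counts of the 16 old libraries were fitted in R 4.3.3 with edgeR 4.0.16 (filterByExpr, minimum count 10, TMM factors, quasi-likelihood F test, Benjamini-Hochberg, threshold 0.05). The tested microRNAs held at least 99.7% of the counts of every library. The SE is the absolute log2 fold change over the square root of F, and it does not give the counting error of a group with few counts. Code interactions used the same libraries and age interactions all 24. Shares and arm ratios were compared by two-sided exact permutation tests (scipy 1.17.1, Python 3.11.15). Scripts were tested on simulated data. No molecular identifiers were counted, so counting intervals are a lower limit of the error.

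Members, lists and the rule for names were chosen with earlier results of these data known. The rule named the 10 largest differences in each direction averaging 100 CPM or more, the 8 leading microRNAs of each compartment, up to 4 members of each list, the 5 largest arm changes, the 4 most abundant with no count in the other compartment, and the 4 largest interactions by code and by age. Other members were named after their values were seen. Alternatives were RLE, upper-quartile and library-size scaling, other filters, summed rows, DESeq2 1.42.0, limma 3.58.1 voom with sample weights, thinning, all 24 libraries, each code alone, the replicate block and leaving out each library. Leaving out hemolymph libraries 3 and 4 together was added after seeing the data. Replicate numbers did not pair the libraries by the check used.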

Additional observations from a re-analysis of the deposited data

Results flagged for a closer look

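Among 108 groups of 8 libraries (54 named microRNAs in 2 compartments), 13 held a library far from the others, and all 13 were hemolymph groups. Libraries 3 and 4 recur among the 13, so the groups are not independent, and whether 13 exceeds chance was not tested. Library 4 was the high one for miR-318-3p (17907 CPM, others 147 to 2178), miR-994-5p (2182, others 23.6 to 436), miR-311-3p (7700.1, others 827 to 4083), miR-312-3p (22812, others 2234 to 11227), miR-92a-3p (1226, others 142 to 621) and miR-92b-3p (17690 CPM, others 2435 to 8391). Library 3 was the high one for miR-277-3p (26841 CPM, others 7873 to 12947), miR-34-5p (18810, others 9820.0 to 13449), miR-282-5p (6838, others 2676 to 4610), miR-13b-3p (2860 CPM, others 1291 to 1906) and miR-210-3p (114 CPM, others 0 to 41.4). Library 6 was high for miR-275-5p (1348 CPM, others 637 to 909) and library 8 for miR-2b-3p (6514 CPM, others 4173 to 5230).

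The difference between hemolymph and body itself differed between O-coded and R-coded libraries, by the interaction in edgeR, for 5 named microRNAs: by 4.61 on the log2 scale for miR-318-3p, 4.69 for miR-994-5p, 2.52 for miR-989-3p, 1.90 for miR-998-5p and 1.10 for miR-10-5p.

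It differed between old and young flies for 9. It was more positive in old flies by 3.10 for miR-275-3p, 2.87 for miR-957-3p, 3.75 for miR-989-3p, 1.59 for miR-317-3p and 1.43 for miR-10-5p. Values of -1.37 for miR-2b-3p, -1.46 for miR-9c-5p, -1.12 for miR-9b-5p and -1.07 for miR-14-3p were more negative in old flies. In the fit of all 24 libraries the log2 differences were -0.59 in old and 0.78 in young flies for miR-2b-3p, -0.85 and 0.60 for miR-9c-5p, and 0.33 and 1.40 for miR-14-3p. In the main fit of the old libraries these 3 stood at -0.12, -0.40 and 0.80, and the common shift between the fits was -0.46.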

How the results depend on the processing

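For the named microRNAs, 1531 alternative values kept their direction and their side of the threshold, 40 passed where the main value had not, 31 no longer passed and 12 changed sign. The 40 were values of miR-2b-3p, miR-92b-3p and miR-998-3p. Numbers of calls and the top 10 share are not in this tally and are given below. All 12 sign changes were of bantam-3p (0.22): -0.28 with RLE scaling and by DESeq2, -0.13 by library size, -0.34 without a filter, -0.10 at a mean of at least 100 CPM, -0.093 with summed rows, -0.043 thinned, -0.25 in the fit of 24 libraries, -0.10 in R-coded libraries, and -0.013, -0.014 and -0.090 without hemolymph library 3, 7 or 8 (from -0.090 to 0.24 over all 16 left out in turn). Leaving out 1 library gave 45 to 50 higher, 45 to 55 lower, 5 to 10 calls by code, 13 to 27 by age, 6 to 27 for the code in hemolymph, 0 to 1 in body, 14 to 17 arm ratios and a share difference of 4.06 to 5.48 points. Of the calls, 89 of 95 held without each library. The lowest code count, 5, came without body library 4 or 5. In hemolymph the count of 15 was 6 without hemolymph library 6, 7 without library 5, 8 without hemolymph library 2 or body library 7, 9 without body library 1 and 27 without hemolymph library 8. Without a filter 93 were lower of 303 tested. For the code within body, RLE scaling, upper-quartile factors, no filter, the 100 CPM filter and thinning gave 1 each, as did leaving out hemolymph libraries 3 and 4, library size alone gave 2, DESeq2 3 and voom 9. For the code within hemolymph summed rows gave 9, as did leaving out libraries 3 and 4. By age, RLE scaling gave 28, DESeq2 32 and no filter 9. In O-coded libraries the top 10 share differed by 3.19 points, and arm ratios gave 0 calls in O-coded and 0 in R-coded libraries, a limit set by 4 against 4. Otherwise the cause of these changes was not tested. Deviations of same-numbered libraries had r = -0.32 to 0.20, over 0.1 for 2 of 8 numbers, so the numbers were not taken to pair the libraries; the replicate block kept 93 of the 95 calls and left 1 of the 8 code calls. The shallower hemolymph libraries limit values under about 100 CPM, where few counts stand behind a level.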
